A study of Mus musculus with 6 samples.

Results

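Dendritic cells sample antigens and present them to T cells on MHC class II molecules, and they fall into subsets with separate gene programmes. Conventional type 1 cells (cDC1) cross-present antigen from dead cells and depend on the transcription factors IRF8 and BATF3. Conventional type 2 cells (cDC2) and dendritic cells derived from monocytes carry C-type lectin receptors such as CD209a and CLEC10A, and plasmacytoid dendritic cells (pDC) secrete type I interferon under the control of TCF4. Bone marrow holds mature cells of these subsets as well as their progenitors, which need FLT3 signalling. The 10 genes described here are subset genes chosen by symbol as a possible other source of class II transcripts: Cd209a, Clec10a, Siglech, Tcf4, Xcr1, Clec9a, Batf3, Irf8, Naaa and Zbtb46. All 10 were found among the 30803 rows of the expression tables.

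The samples were poly(A) RNA-seq libraries of cells labelled hematopoietic stem cells (HSCs), sorted from the bone marrow of wild-type (WT) mice aged 5 months. The titles call all of them Ctrl, and no treatment, transgene or deletion is given for either group. Sorting gave an MHCII-lo and an MHCII-hi fraction with 3 libraries each, so that n = 3 for every mean and SD below. The gate's markers and limits, and any pooling of mice, were not given in the sources used here. Nothing in the labels ties the 3 libraries of a group to separate animals, so every p-value below measures only the spread between libraries, which may be technical.

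The values were read as FPKM, that is, fragments counted per kilobase of a gene's transcript and divided by the size of the library. This unit was inferred from the numbers, and the depth is unknown. A library's FPKM summed to between 305934 and 306945 in MHCII-lo and between 333347 and 333530 in MHCII-hi. The class II chains behaved as the sort labels say: H2-Aa, the alpha chain of I-A, stood at 7.34 ± 0.0361 (SD) FPKM in MHCII-lo libraries and at 80.5 ± 0.811 FPKM in MHCII-hi. Markers of the labelled cell type were uneven. Of 13 stem and progenitor genes, 8 were tested, of which 5 rose and 3 did not pass. Kit stood at 10.9 FPKM in both groups, Cd34 at 14.8 and 15.7 FPKM, Gata2 at 9.79 and 23.8 FPKM and Ly6a (Sca-1) at 4.78 and 14.6 FPKM. Progenitors also express several of these genes. Others were close to 0: Hoxb5, which marks long-term HSCs, was listed at 0 in 5 libraries and at 0.01 FPKM in the other, and Fgd5 reached at most 0.15 FPKM, Mecom 0.21 FPKM and Slamf1 (CD150) 0.49 FPKM. The neutrophil genes on a list of 12 summed to 16554 to 16634 FPKM in MHCII-lo and to 21744 to 22028 FPKM in MHCII-hi, and 7 rose and 4 fell. Of 10 T and NK cell genes, 6 rose and 3 fell, with sums of 191 to 195 and 184 to 195 FPKM. Over all 12295 tested genes, 27.2% were higher and 40.5% lower in MHCII-hi. Those shares are the background for these counts and for the counts of every list below. Tested genes averaged 1 FPKM or more over the 6 libraries. A gene averaging under 1 FPKM in 1 group passed only through the other group, and could be called only higher there.

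Of the 10 dendritic cell genes, 7 averaged 1 FPKM or more across the 6 libraries and were tested. In limma's linear model of log2(FPKM + 1), fitted across 12295 genes with Benjamini-Hochberg adjustment, 5 rose and 2 fell in the MHCII-hi fraction (threshold 0.05). Cd209a and Siglech rose more than 2-fold, Clec10a, Tcf4 and Clec9a rose by 1.46-fold to 1.68-fold, and Irf8 and Naaa fell. Calls were common over the whole table: 27.2% of the tested genes were higher and 40.5% lower, so 7 of 7 calls stands against a background of 67.8%. The median log2 change of the tested dendritic cell genes was 0.51, against -0.08 over all tested genes. Xcr1, Batf3 and Zbtb46 lay below the minimum and are given as values only. Counting all 10, the groups did not overlap for 9 genes, 7 with MHCII-hi above and 2 with MHCII-hi below, against 41.1% of the 27715 genes above 0 in any library for either order and 19.2% of them for MHCII-hi above. In sorted bulk samples, a change in the share of cells of a type and a change in RNA per cell cannot be told apart.

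**Figure D1:**
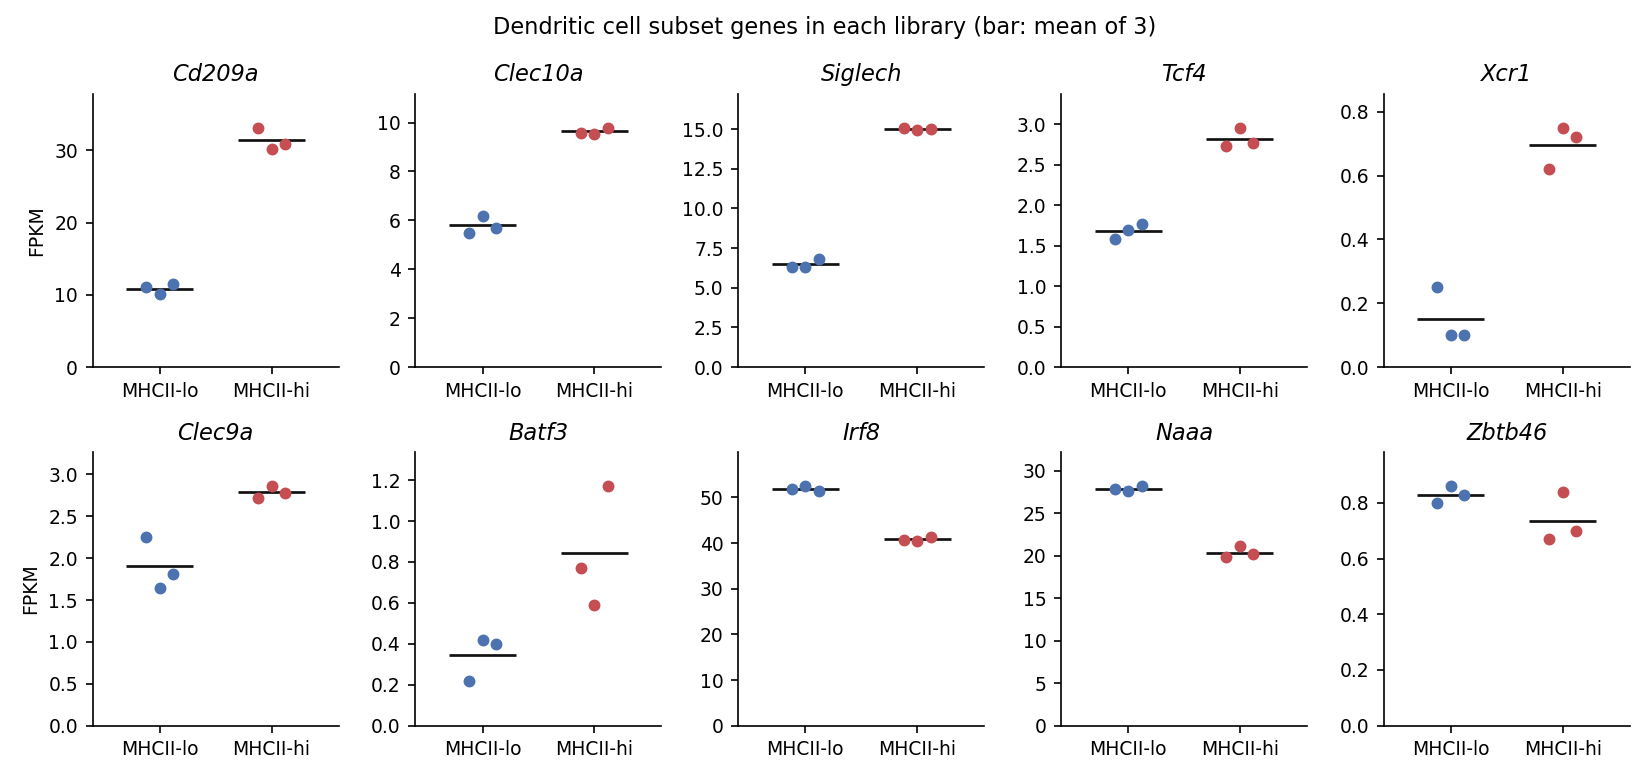
FPKM (vertical axes, each from 0) of the 10 dendritic cell genes in the 3 MHCII-lo libraries (blue) and the 3 MHCII-hi libraries (red); points are libraries and bars group means. MHCII-hi lies above MHCII-lo for 7 genes and below it for Irf8 and Naaa, and the groups overlap for Zbtb46.

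Siglech and Cd209a rose most among the tested genes of the set. Irf8 was the most abundant and fell, though by less than Naaa (log2 change -0.34 against -0.44). The stretches before the start sites of Siglech, Cd209a and Irf8 are printed. Each is the 250 bases before the start in RefSeq (build GRCm38.p6), read 5′ to 3′ on the gene's strand. Capitals mark matches, on either strand, to an E box of the kind E proteins such as TCF4 bind (CACCTG), a STAT motif (TTCNNNGAA), an AP-1 motif (TGANTCA), a tandem IRF motif (2 copies of GAAA with 2 bases between them) or an ETS and IRF composite motif (GGAA and GAAA with 2 bases between them).
Siglech, chr7:55767934-55768183, plus strand: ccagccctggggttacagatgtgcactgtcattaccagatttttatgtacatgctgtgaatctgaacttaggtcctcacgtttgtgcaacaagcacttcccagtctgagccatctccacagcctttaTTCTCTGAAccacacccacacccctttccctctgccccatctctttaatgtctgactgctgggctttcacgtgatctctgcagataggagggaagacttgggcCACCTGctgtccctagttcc
Cd209a, chr8:3748985-3749234, minus strand: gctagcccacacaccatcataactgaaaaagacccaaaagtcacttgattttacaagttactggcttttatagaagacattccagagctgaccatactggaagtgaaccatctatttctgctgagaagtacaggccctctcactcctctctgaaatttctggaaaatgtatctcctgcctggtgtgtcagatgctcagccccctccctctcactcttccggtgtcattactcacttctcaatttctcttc
Irf8, chr8:120736108-120736357, plus strand: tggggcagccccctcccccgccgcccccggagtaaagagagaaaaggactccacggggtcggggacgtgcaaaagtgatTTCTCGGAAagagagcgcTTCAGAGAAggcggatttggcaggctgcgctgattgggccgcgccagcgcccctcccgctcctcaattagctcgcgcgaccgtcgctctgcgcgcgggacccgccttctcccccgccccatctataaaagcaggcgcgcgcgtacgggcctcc

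The E box of Siglech lies 20 to 15 bases before the start and its STAT match 123 to 115 bases before it. Irf8 has 2 start sites in this source. The printed one has 2 STAT matches, 171 to 163 and 153 to 145 bases before the start, and the other has an E box 205 to 200 bases before it and no STAT match. Cd209a has no match to these letters in this window. Among 32851 RefSeq stretches of the same length, 17.2% hold the E box, 7.02% the STAT motif, 6.75% the AP-1 motif, 2.98% the tandem IRF motif and 2.30% the composite motif. Entries were used for 8 of the 10 genes, with 9 start sites. Of these 9, 3 hold the E box (Siglech, Zbtb46 and the second site of Irf8), 3 the STAT motif (Siglech, Batf3 and the first site of Irf8) and 1 the AP-1 motif (Zbtb46), and none holds either IRF motif. The stretches of Zbtb46 (chromosome 2, 181424389 to 181424638), Batf3 and the second site of Irf8 lie inside the annotated spans of these genes. They are therefore not before the annotated starts given below. All these matches are descriptions of letters and not of binding.

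Both lectin receptors of the set, Cd209a and Clec10a, rose. Cd209a encodes a mouse homologue of DC-SIGN, a receptor for sugars on pathogens (ENSMUSG00000031494.7; protein-coding; GRCm38 chromosome 8, 3743397 to 3748984, minus strand). It stood at 11.09, 10.09 and 11.47 FPKM in the MHCII-lo libraries and at 33.13, 30.24 and 30.84 FPKM in the MHCII-hi libraries. The lowest MHCII-hi library was well above the highest MHCII-lo library. The means were 10.9 ± 0.713 (SD) and 31.4 ± 1.53 FPKM, a 2.89-fold rise and a log2 change of 1.45 ± 0.05 (SE; limma adjusted p = 1.39e-06). Cd209a lay above 63.9% of the tested genes in MHCII-lo and above 88.2% of them in MHCII-hi.

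Clec10a encodes a galactose-type lectin of macrophages and cDC2 (ENSMUSG00000000318.16; protein-coding; chromosome 11, 70156197 to 70170834, plus strand). Its values were 5.49, 6.19 and 5.71 FPKM in MHCII-lo and 9.57, 9.55 and 9.79 FPKM in MHCII-hi, with no overlap. This was a 1.66-fold rise, with a log2 change of 0.65 ± 0.05 (SE; limma adjusted p = 2.56e-05). Cd209a rose more than Clec10a, from 1.89 ± 0.222 to 3.26 ± 0.175 (SD) FPKM of Cd209a per FPKM of Clec10a.

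The close relatives of these lectins did not all move the same way. Mgl2, a second galactose-type lectin of the same dendritic cells beside Clec10a on chromosome 11 (70130329 to 70137550, plus strand), stood at 11.88, 11.44 and 12.68 FPKM in MHCII-lo and at 8.80, 8.11 and 8.22 FPKM in MHCII-hi. It fell by 0.47 on the log2 scale (SE 0.05; limma adjusted p = 0.000158), so that Mgl2 was above Clec10a in every MHCII-lo library and below it in every MHCII-hi library. The ratio of Clec10a to Mgl2 went from 0.485 ± 0.0494 to 1.15 ± 0.0563 (SD). Cd209d, a relative of Cd209a in the same chromosome 8 cluster, stood at 1.28 ± 0.349 and 2.01 ± 0.162 FPKM (log2 change 0.41 ± 0.12 SE, limma adjusted p = 0.0182). That call was lost without MHCII-lo replicate 2 (limma adjusted p = 0.0615), MHCII-lo replicate 3 (0.0588) or MHCII-hi replicate 1 (0.0571), and without a filter on low values (0.0540). Cd209c stayed at or under 0.50 FPKM. Levels within each of these lectin families are uncertain, because the handling of reads shared by similar genes was not given in the sources used here.

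**Figure D2:**
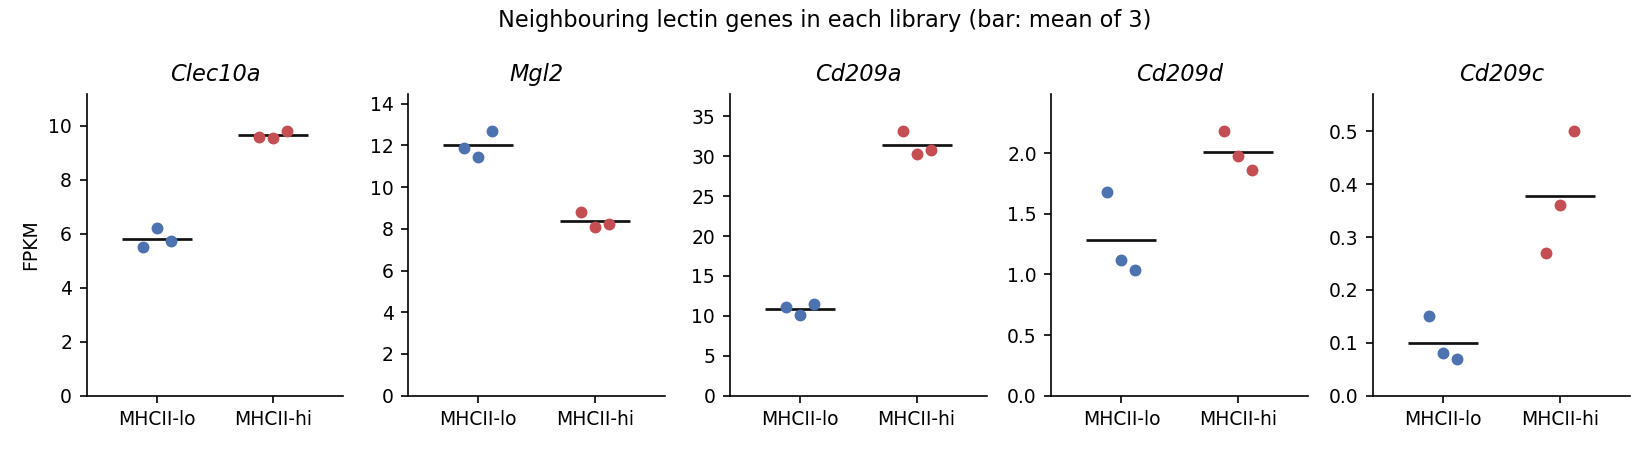
FPKM (vertical axes, each from 0) of Clec10a and its neighbour Mgl2, and of Cd209a and its relatives Cd209d and Cd209c, in MHCII-lo (blue) and MHCII-hi (red) libraries; points are libraries and bars group means. Clec10a is higher and Mgl2 lower in all 3 MHCII-hi libraries.

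The wider list of cDC2 and monocyte-derived dendritic cell genes held both directions. Of its 12 tested genes, 8 rose and 4 fell (66.7% higher, against 27.2% of all tested genes), with a median log2 change of 0.12. Irf4, a transcription factor of cDC2 that B cells and plasma cells also use, rose 9.01-fold to 20.0 ± 0.720 (SD) FPKM, and Itgam (CD11b) rose 1.71-fold to 150 ± 4.44 FPKM. Neutrophils also carry CD11b, and the neutrophil genes Ngp, Mmp8, Mmp9 and Ltf rose 2.70-fold, 2.65-fold, 2.61-fold and 1.76-fold, while Mpo, Elane, Prtn3 and Ctsg fell. The part of neutrophils in the Itgam value was not tested. Ccr2, the chemokine receptor that brings monocytes out of the marrow, fell from 74.1 ± 0.709 to 37.0 ± 1.13 FPKM. Mgl2 and the inhibitory lectins Clec12a and Clec4a2 were the other genes that fell. Sirpa, Notch2 and Klf4 passed at log2 changes of only 0.10, 0.11 and 0.13. Without MHCII-lo replicate 2 the list's count of higher genes was 5, with Sirpa, Notch2 and Cd209d no longer past the threshold. The call of Notch2 was lost when any 1 of the MHCII-lo libraries was left out (limma adjusted p from 0.0517 to 0.0537).

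Most monocyte genes were lower in the same comparison. Of 13 tested genes on the monocyte list, 9 fell, 2 rose and 2 did not pass, with a median log2 change of -0.43, and the list's summed level was 5236 to 5335 FPKM in MHCII-lo against 3835 to 3917 FPKM in MHCII-hi. Lyz2 (lysozyme) fell from 3860 to 2895 FPKM, Ly6c2 from 459 to 341 FPKM and F13a1 from 182 to 86.4 FPKM. The 2 that rose were Nr4a1, 2.04-fold from 55.8 to 114 FPKM, and Klf4, by a log2 change of 0.13. No gene on this list was at 0 in any library. Cd209a therefore rose while Ccr2 fell, and FPKM of Cd209a per FPKM of Ccr2 went from 0.147 ± 0.00863 to 0.849 ± 0.0574 (SD). Macrophage genes, which share Clec10a and Mrc1 with dendritic cells, rose in 7 of 9 cases, with summed levels of 92.7 to 95.6 FPKM in MHCII-lo against 134 to 137 FPKM in MHCII-hi. The largest rises were those of C1qa (6.91-fold, from 0.740 to 5.11 FPKM), C1qb (6.86-fold, from 0.820 to 5.62 FPKM) and C1qc (5.07-fold, from 0.587 to 2.98 FPKM). These C1q genes averaged under 1 FPKM in MHCII-lo and entered the test only through MHCII-hi, so their calls could only be rises. Of the other tested macrophage genes, 1, Adgre1, fell and 1, Vcam1, did not pass. Marco was at 0 in all MHCII-lo libraries and 1 MHCII-hi library, and Timd4 in 1 MHCII-lo library. The part of monocytes or macrophages in the lectin values was not tested.

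Both pDC genes of the set rose. Siglech encodes a sialic acid-binding receptor that dampens interferon secretion and is the usual surface marker of mouse pDC (ENSMUSG00000051504.18; protein-coding; chromosome 7, 55768178 to 55778925, plus strand). It stood at 6.33, 6.30 and 6.81 FPKM in MHCII-lo and at 15.09, 14.95 and 14.98 FPKM in MHCII-hi. The MHCII-hi libraries were almost level with each other and far above the others. The rise was 2.32-fold, with a log2 change of 1.10 ± 0.04 (SE; limma adjusted p = 8.86e-07), the smallest adjusted p among the 7 tested genes of the set.

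Tcf4, the E protein transcription factor (E2-2) that specifies pDC and is also present in B cells, is annotated at chromosome 18, 69343356 to 69689079, plus strand (ENSMUSG00000053477.17; protein-coding). It was low, with 1.58, 1.69 and 1.77 FPKM in MHCII-lo and 2.73, 2.96 and 2.77 FPKM in MHCII-hi. The groups did not overlap, and the log2 change was 0.51 ± 0.06 (SE), a 1.68-fold rise (limma adjusted p = 0.000257). Siglech rose more than Tcf4, from 3.86 ± 0.140 to 5.33 ± 0.248 (SD) FPKM per FPKM of Tcf4.

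The rest of the pDC list rose widely. Besides Siglech and Tcf4, 17 genes were tested: 14 rose, 2 fell and 1, Zeb2, did not pass, with a median log2 change of 0.59. Spib, an ETS factor of pDC and B cells, rose 6.45-fold from 5.06 ± 0.137 to 32.7 ± 0.677 (SD) FPKM. Ly6d, a marker of lymphoid progenitors, B cells and pDC, rose 4.04-fold to 68.2 ± 1.97 FPKM, and Cox6a2, a cytochrome c oxidase subunit found in pDC, rose 2.97-fold to 11.3 ± 0.313 FPKM. Klk1 went from 0.243 ± 0.135 to 3.99 ± 0.328 FPKM. The chemokine receptor Ccr9 rose from 0.517 to 2.03 FPKM. Klk1 and Ccr9 averaged under 1 FPKM in MHCII-lo and entered the test only through MHCII-hi, so their calls could only be rises. The nucleic acid sensors Tlr7 and Tlr9 and the interferon regulator Irf7 rose by 0.50, 0.59 and 0.46 on the log2 scale.

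The abundant pDC list genes Bst2 and Pld4 fell slightly, Bst2 from 53.2 ± 1.04 to 47.4 ± 1.33 (SD) FPKM and Pld4 from 71.1 ± 2.77 to 65.6 ± 1.52 FPKM. Neither call held with median-of-ratios scaling (limma adjusted p = 0.0627 and 0.582). That of Pld4 was also lost with quantile normalization (0.0516), with the trend on length and GC content removed (0.224) and without MHCII-hi replicate 2 (0.0567). Spib rose more than Siglech, from 0.782 ± 0.0519 to 2.18 ± 0.0364 FPKM per FPKM of Siglech. Several genes on this list (Spib, Ly6d, Tcf4, Bcl11a, Tlr7 and Tlr9) are also expressed by B cells. B cell genes moved with them: all 16 tested genes on the B cell list rose, and the list's summed level went from 421 to 479 FPKM in MHCII-lo to 7824 to 7965 FPKM in MHCII-hi. In MHCII-lo, Fcer2a was at 0 in 1 library and Cr2 in 2 libraries. Plasma cell genes rose in 9 of 9 cases, with summed levels of 102 to 111 and 1491 to 1508 FPKM. Ms4a1, Ebf1 and Bank1 on the B cell list, and Prdm1, Tnfrsf17 and Derl3 on the plasma cell list, entered the test only through MHCII-hi. The part of B cells in the pDC list was not tested.

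The cDC1 genes of the set split by level. Irf8, the transcription factor required for cDC1 and also active in monocyte and B cell development (ENSMUSG00000041515.10; protein-coding; chromosome 8, 120736358 to 120756694, plus strand), was the most abundant gene of the set. It stood at 51.78, 52.46 and 51.35 FPKM in MHCII-lo and at 40.64, 40.37 and 41.38 FPKM in MHCII-hi. All MHCII-hi libraries were below all MHCII-lo libraries. The log2 change was -0.34 ± 0.02 (SE; limma adjusted p = 1.35e-05), 1.27-fold lower. Irf8 still lay above 91.2% of the tested genes in MHCII-hi.

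Naaa encodes a lysosomal amidase of fatty acid amides that is high in cDC1 and also present in other myeloid cells (ENSMUSG00000029413.14; protein-coding; chromosome 5, 92257659 to 92278170, minus strand). Its values were 27.83, 27.64 and 28.16 FPKM in MHCII-lo and 19.82, 21.08 and 20.15 FPKM in MHCII-hi. As for Irf8, the groups did not overlap, and the log2 change was -0.44 ± 0.03 (SE; limma adjusted p = 2.12e-05). Cd209a and Naaa changed places: FPKM of Cd209a per FPKM of Naaa was 0.390 ± 0.0223 in MHCII-lo and 1.55 ± 0.119 (SD) in MHCII-hi.

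The cDC1 surface receptors and Batf3 were low and higher in MHCII-hi. Clec9a encodes DNGR-1, which binds exposed actin on dead cells (ENSMUSG00000046080.17; protein-coding; chromosome 6, 129408862 to 129424763, plus strand). It stood at 2.25, 1.65 and 1.81 FPKM in MHCII-lo and at 2.72, 2.86 and 2.78 FPKM in MHCII-hi. The groups did not overlap, but the spread in MHCII-lo was wide against the difference. The log2 change was 0.39 ± 0.08 (SE; limma adjusted p = 0.00566), a 1.46-fold rise. Clec1b and the predicted gene Gm43914 overlap the annotated span of Clec9a on the same strand. Clec1b was at or under 0.43 FPKM, and Gm43914 had 0.68 to 1.04 FPKM in MHCII-lo and 1.89 to 3.82 FPKM in MHCII-hi (limma adjusted p = 0.00341), so reads of Clec9a and Gm43914 may not be separable.

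Xcr1, the receptor for the chemokine XCL1 and the most restricted cDC1 marker of the set (ENSMUSG00000060509.4; protein-coding; chromosome 9, 123852315 to 123862029, minus strand), was at 0.25, 0.10 and 0.10 FPKM in MHCII-lo and at 0.62, 0.75 and 0.72 FPKM in MHCII-hi. Batf3, the AP-1 family partner of IRF8 (ENSMUSG00000026630.9; protein-coding; chromosome 1, 191097847 to 191108945, plus strand), was at 0.22, 0.42 and 0.40 FPKM in MHCII-lo and at 0.77, 0.59 and 1.17 FPKM in MHCII-hi. For both genes the lowest MHCII-hi library exceeded the highest MHCII-lo library, at levels below the minimum for a test. At 2 decimals and unknown depth, the fold of so low a level is poorly determined. Other cDC1 list genes below the minimum, namely Cadm1, Itgae (CD103), Tlr3 and Gcsam, had the same order, with no value above 0.85 FPKM.

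Of the other cDC1 list genes that were tested, 5 of 7 rose, the other two did not pass, and the median log2 change was 0.37. Cd24a rose 1.52-fold to 321 ± 3.70 (SD) FPKM, Id2 1.48-fold to 38.7 ± 0.901 FPKM, Wdfy4 1.42-fold to 23.1 ± 0.124 FPKM and Ly75 (DEC-205) 1.37-fold to 5.34 ± 0.395 FPKM. Wdfy4 is needed for cross-presentation and Id2 restrains E proteins, and Cd24a and Wdfy4 are also expressed by B cells. Nfil3, at 32.4 and 30.4 FPKM, and Rab7b, at 2.39 and 2.52 FPKM, did not pass.

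Zbtb46, the transcription factor that separates conventional dendritic cells from pDC and from monocytes (ENSMUSG00000027583.13; protein-coding; chromosome 2, 181387762 to 181459426, minus strand), was the only gene of the set whose groups overlapped. Its values were 0.80, 0.86 and 0.83 FPKM in MHCII-lo and 0.67, 0.84 and 0.70 FPKM in MHCII-hi, below the minimum for a test. The means were 0.830 ± 0.0300 and 0.737 ± 0.0907 (SD) FPKM. In MHCII-hi, Zbtb46, Batf3 and Xcr1 could not be ordered, since their libraries overlapped.

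The genes shared by dendritic cells and their progenitors rose in 11 of 13 tested cases, with a median log2 change of 0.33. Dpp4 (CD26) rose 1.79-fold, Cbfa2t3 1.78-fold, the integrin Itgax (CD11c) 1.69-fold to 10.7 ± 0.565 (SD) FPKM, and the growth factor gene Flt3l 1.76-fold. Flt3, the receptor for that factor, rose from 9.80 ± 0.0624 to 14.8 ± 0.384 FPKM. Stat5a did not pass. L3mbtl3 fell at a limma adjusted p of 0.0487, and that call was lost under most other settings, among them every setting that left out a library (adjusted p from 0.0688 to 0.148).

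Genes of dendritic cell maturation were mostly higher in MHCII-hi. Of 8 tested, 7 rose and Cd86 did not pass, at 3.23 ± 0.251 and 3.14 ± 0.386 (SD) FPKM. Ccr7, which guides mature dendritic cells and lymphocytes to lymph nodes, rose 6.37-fold to 7.50 ± 0.627 FPKM, Cd83 3.29-fold to 4.33 ± 0.759 FPKM and Cd274 (PD-L1) 2.15-fold to 7.05 ± 0.179 FPKM. Marcksl1, the most abundant gene of the list, rose 1.69-fold from 22.5 ± 1.13 to 38.2 ± 1.48 FPKM. Ccr7 and Cd83 are also expressed by B cells. Several more restricted maturation genes stayed under 1 FPKM in every library: Fscn1 at most 0.83, Ccl22 at most 0.65, Ccl17 at most 0.66 and Il12b at most 0.54 FPKM. Il12b was listed at 0 in all MHCII-lo libraries, Ccl22 and Ccl17 in 2 and 1 of them, and Ccl17 also in 2 MHCII-hi libraries. Of the list's 7 genes below the minimum, 6 had every MHCII-hi library above every MHCII-lo library, and Ccl17 overlapped. That order held for 19.2% of the genes above 0 in any library. Mean Fscn1 went from 0.0600 to 0.657 FPKM, Ccl22 from 0.00667 to 0.457 FPKM and Il12b from 0 to 0.353 FPKM, with poorly determined folds.

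**Figure D3:**
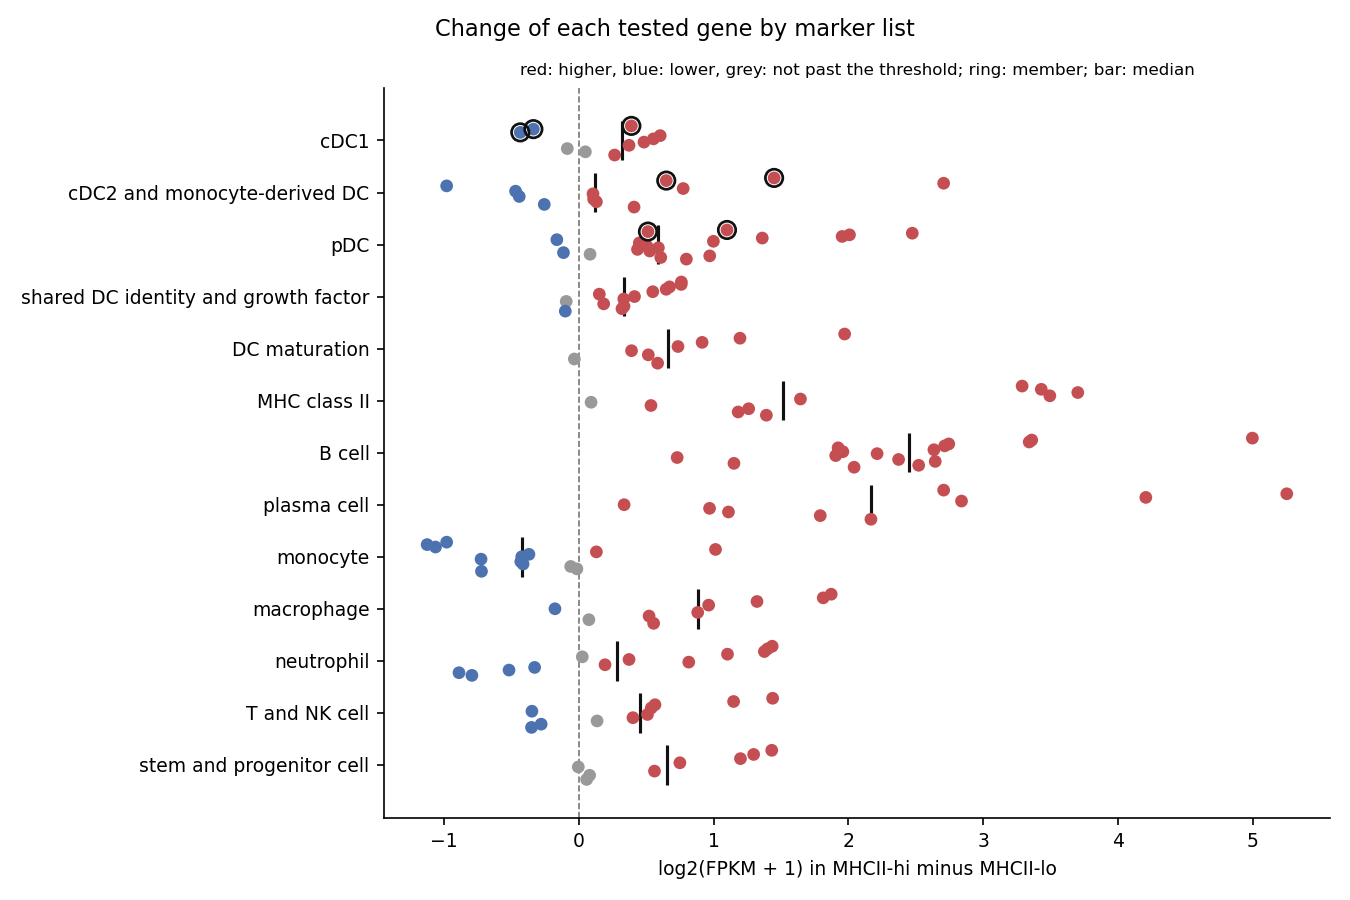
Difference in log2(FPKM + 1) between MHCII-hi and MHCII-lo (horizontal axis) for every tested gene of 13 marker lists (rows); each point is a gene, rings are the tested dendritic cell genes, bars are list medians and the dashed line is 0. The pDC median is 0.59 and the cDC2 median 0.12, against 1.52 for class II genes, 2.45 for B cell genes and -0.43 for monocyte genes.

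Ranked by level, the set kept much of its order between the groups. In MHCII-lo it ran Irf8, Naaa, Cd209a, Siglech, Clec10a, Clec9a, Tcf4, Zbtb46, Batf3 and Xcr1. The libraries of Clec9a and Tcf4 overlapped, as did those of Batf3 and Xcr1, and all other neighbours were separate. In MHCII-hi, Cd209a stood second, above Naaa, and Siglech and Clec10a followed. Tcf4 and Clec9a again overlapped, and the 3 lowest genes overlapped among themselves.

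The dendritic cell genes were set beside the class II genes within each library, on the FPKM scale. H2-Aa rose 10.97-fold, H2-Ab1 11.8-fold, H2-Eb1 15.1-fold, the invariant chain gene Cd74 11.5-fold and the class II transactivator gene Ciita 8.59-fold. Ciita started from 0.387 FPKM in MHCII-lo, so its fold is poorly determined. Among the 7 tested genes of the set the largest rise was that of Cd209a, at 2.89-fold. Xcr1, below the minimum for a test, had a larger fold of 4.64, from 0.150 to 0.697 FPKM. At so low a level that fold is poorly determined. FPKM of H2-Aa per FPKM of Cd209a was 0.665, 0.723 and 0.641 in MHCII-lo and 2.43, 2.69 and 2.58 in MHCII-hi. Per FPKM of Siglech it went from 1.13 ± 0.0476 to 5.37 ± 0.0640 (SD), per FPKM of Clec9a from 3.92 ± 0.587 to 28.9 ± 0.629, and per FPKM of Irf8 from 0.142 ± 0.00211 to 1.97 ± 0.0447. In each case every MHCII-hi library had a higher ratio than every MHCII-lo one. The fractions were sorted on MHCII, so H2-Aa had to differ between them. Its ratio to any gene that rose less then follows from the sort. This order is therefore no test of where the class II transcripts came from.

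Set against Cd79a, the signalling chain of the B cell receptor, H2-Aa was nearly level: 1.29, 1.24 and 1.35 FPKM per FPKM of Cd79a in MHCII-lo and 1.15, 1.21 and 1.26 in MHCII-hi, with overlapping groups. Cd79a itself went from 5.69 ± 0.220 to 66.8 ± 3.33 (SD) FPKM, and per FPKM of Siglech from 0.880 ± 0.0698 to 4.45 ± 0.206. Other B cell genes rose by less or by more than H2-Aa: Cd37 1.68-fold, Cd79b 4.01-fold, Vpreb3 6.94-fold, Ms4a1 29.5-fold and Igkc 31.9-fold. Ms4a1 started from 0.223 FPKM in MHCII-lo, so its fold is poorly determined. The near-level ratio is therefore a value for Cd79a and not for the B cell list. In all, 14 such ratios were computed, chosen with the values known. An exact two-sided permutation test over the 6 libraries cannot go below p = 0.10, which 13 of the 14 reached (0.108 after Benjamini-Hochberg adjustment). For H2-Aa per Cd79a the exact p was 0.20. The share of class II transcripts that came from any cell type was not measured.

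**Figure D4:**
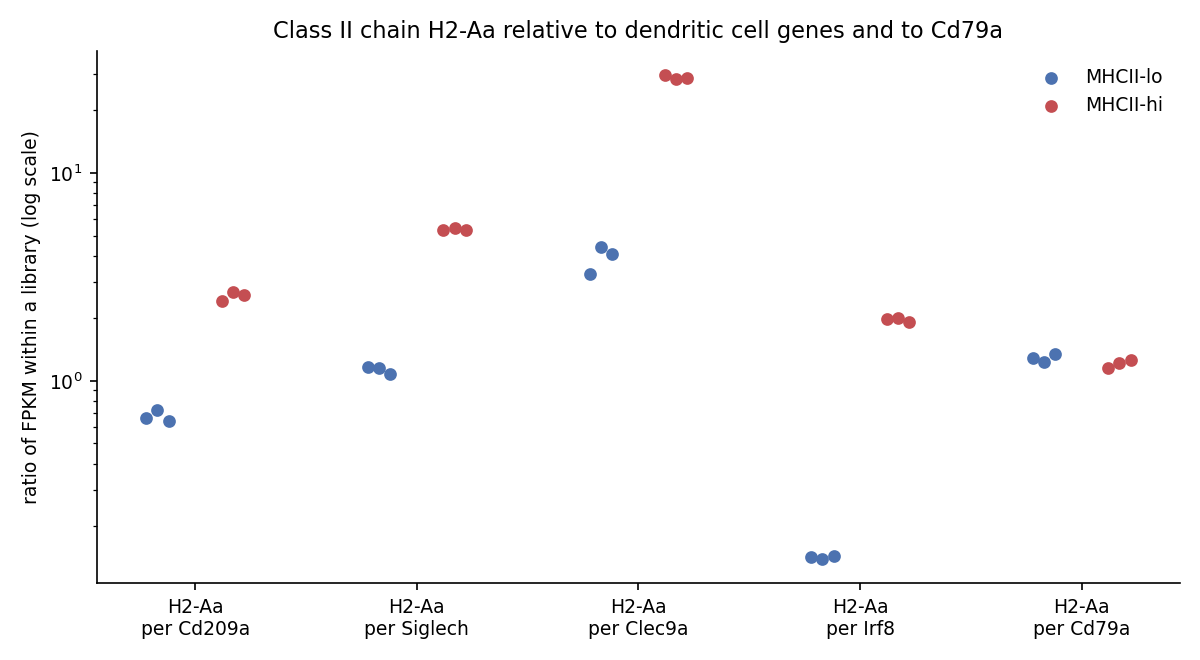
Ratio of H2-Aa FPKM to the FPKM of Cd209a, Siglech, Clec9a, Irf8 and Cd79a within each library (vertical axis, log scale), for MHCII-lo (blue) and MHCII-hi (red); each point is a library. The MHCII-hi ratios lie above the MHCII-lo ratios for the 4 dendritic cell genes and overlap them for Cd79a. The sort on MHCII itself raises H2-Aa in MHCII-hi.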

How the data were processed

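Each of the 6 libraries has a deposited table of gene symbols with 1 value per gene. Per the submitters' processing notes, the tools were fastp, HISAT2 and StringTie, with GRCm38 and mm10 as builds, and their versions and settings were not given in the sources used here. These deposited values were taken as FPKM made by the authors, scaled to transcript length and library size, since they have decimals and unequal totals. FPKM keeps no depth, so no counting interval was computed, and a rise of abundant transcripts lowers all other values.

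For 67 repeated symbols the symbol went to the row with the largest mean, and the other 70 rows got a row name. Genes averaging 1 FPKM or more were compared on log2(FPKM + 1) with limma 3.58.1 in R 4.3.3 (two-sided moderated test with a mean-variance trend; p-values adjusted by Benjamini-Hochberg over 12295 genes; threshold 0.05). The fit was tested on simulated data in which far fewer genes changed than were called here. That run could not check how the values were scaled. Log2 changes on this scale understate the change of low genes, while folds are ratios of mean FPKM. Locations came from GENCODE M21 (GRCm38). Tables used Python 3.11.15, pandas 2.3.3 and numpy 2.4.6, and figures matplotlib 3.10.9.

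The 10 genes and 13 marker lists were chosen with earlier results of these data known. Named genes were the 10, 5 class II genes and, from each list, up to 4 tested genes with the largest changes past the threshold. Genes that complete a count, low or overlapping genes, lectin relatives and genes shared with B cells were named after their values were seen. So were the monocyte genes Lyz2 and Ly6c2. Alternatives were a pseudocount of 0.1, no filter, a mean of at least 5 FPKM, quantile and median-of-ratios scaling, rescaling without immunoglobulin genes, a correction of every library for transcript length and GC content (splines with 4 degrees of freedom), no mean-variance trend, a block on the replicate number, and leaving out the libraries in turn.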

Additional observations from a re-analysis of the deposited data

How the results depend on the processing

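Under the 15 alternatives, the 7 tested dendritic cell genes kept their direction and their side of the threshold wherever they could be tested. The log2 change ranged from 1.40 to 1.63 for Cd209a, 1.08 to 1.20 for Siglech, 0.61 to 0.80 for Clec10a, 0.46 to 0.71 for Tcf4, 0.33 to 0.59 for Clec9a, -0.44 to -0.25 for Irf8 and -0.46 to -0.34 for Naaa. A minimum of 5 FPKM removes Tcf4 and Clec9a from the test, which leaves 3 dendritic cell genes higher, and gives 2210 higher genes over the whole table against 3348. Without a filter, Xcr1 passed in limma (adjusted p = 0.00158), Batf3 missed (0.0504) and Zbtb46 did not pass (0.496). Median-of-ratios scaling moved the share of calls that were higher from 40.2% to 50.5%. Notch2 reversed to -0.12 once the trend on length and GC content was removed, and the cause was not tested. The same correction ended the calls of Clec4a2 and Klf4 (limma adjusted p = 0.0549 and 0.0606). Nfil3, Rab7b, Zeb2 and Stat5a, given above as not past the threshold, passed under 3, 1, 3 and 2 of the alternatives. Leaving out each library gave 3071 to 3168 higher and 4501 to 4807 lower genes. With the replicate block the same 5 and 2 dendritic cell genes passed, with 3222 higher and 4809 lower genes in all. Same-numbered libraries did not deviate together (r of 0.0626, 0.0019 and 0.0804 for numbers 1, 2 and 3), and not every library correlated best with its own number. Depth is unknown, which limits what can be said of Xcr1, Batf3, Zbtb46 and other genes under 1 FPKM.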
